A study of Mus musculus with 7 samples.

Results

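The 10 genes described here were followed through the retina of wild type (WT) and spinocerebellar ataxia type 7 (SCA7) mice: the ganglion cell RNA-binding protein gene *Rbpms*, the BRN3 transcription factor genes *Pou4f1*, *Pou4f2* and *Pou4f3*, the melanopsin gene *Opn4*, the gamma-synuclein gene *Sncg*, the surface glycoprotein gene *Thy1*, and the neurofilament genes *Nefl*, *Nefm* and *Nefh*. These 10 genes were picked by name, as genes in common use to recognise retinal ganglion cells and their axons, out of 52550 genes with counts. All 10 passed the filter on low counts, as did 20128 genes in all. Total RNA was sequenced from 4 WT and 3 homozygous SCA7 140Q/140Q knock-in mice, all C57BL/6J and 12.5 weeks old, with both retinas of a mouse pooled into 1 library. The knock-in allele carries a CAG expansion coding for 140 glutamines in exon 1 of *Atxn7* and is driven by the gene's own promoter, so every retinal cell type that uses *Atxn7* carries the mutant protein and none carries the normal form. The mutation was studied in a single knock-in line, and the WT mice carry no transgene.

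Ganglion cells are the output neurons of the retina. They sit in the innermost layer, receive signals from bipolar and amacrine cells, and send their axons through the optic nerve to the brain. RBPMS is found in nearly every ganglion cell, the BRN3 factors direct the fate, axon growth and survival of different ganglion cell types, and melanopsin makes a small set of ganglion cells sensitive to light by themselves, which serve the setting of the body clock and the pupil reflex. Neurofilaments are polymers of a light, a medium and a heavy chain that set the calibre of large axons, and in the retina they are found mainly in ganglion cells and also in horizontal cells. The retinopathy of SCA7 is described as a disease of rods and cones, which lie in the opposite layer of the retina.

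The libraries held between 56497675 and 96635832 counts on genes, so that 1 count equalled between 0.00972 and 0.0188 CPM (counts scaled to the library size) after scaling by TMM, the trimmed mean of M-values. Levels are given below in these units. The WT libraries had *Atxn7* at 39.2 ± 4.26 CPM (SD, n = 4) and the SCA7 libraries at 37.6 ± 2.99 CPM (SD, n = 3), but a longer repeat need not change the number of counts, so this does not check the genotype labels. All 10 rod markers and all 10 cone markers tested were called lower in SCA7. The summed rod markers took 63106 to 65349 CPM in WT and 17429 to 22321 CPM in SCA7. A call, lower or higher, needed an adjusted p under 0.05 in edgeR's quasi-likelihood test together with a fold change (FC, SCA7/WT) under 0.7 or above 1.3.

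*Opn4* was the only 1 of the 10 genes called, with FC 0.571. *Nefl* passed the test at a smaller size, FC 0.809, which lies inside the FC thresholds. No member was called higher. Thus 1 of 10 members was called lower, beside 7.91% of all genes tested, and 0 of 10 higher, beside 7.47% (15.4% in either direction). Without an FC threshold 2 of 10 were lower, beside 14.2% of all genes, and 0 of 10 higher, beside 14.2% (28.3% in either direction). With counts of 1 and 2 lower genes, these shares are a description and no test. In 3 of 10 members (*Pou4f1*, *Opn4* and *Nefl*) every SCA7 library lay below every WT library, as for 18.3% of all genes, and in 0 of 10 above, as for 19.3%. The median log2 FC of the members was -0.11, beside -0.02 over all genes tested. In a bulk sample, fewer ganglion cells and less RNA in each ganglion cell cannot be told apart.

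**Figure D1:**
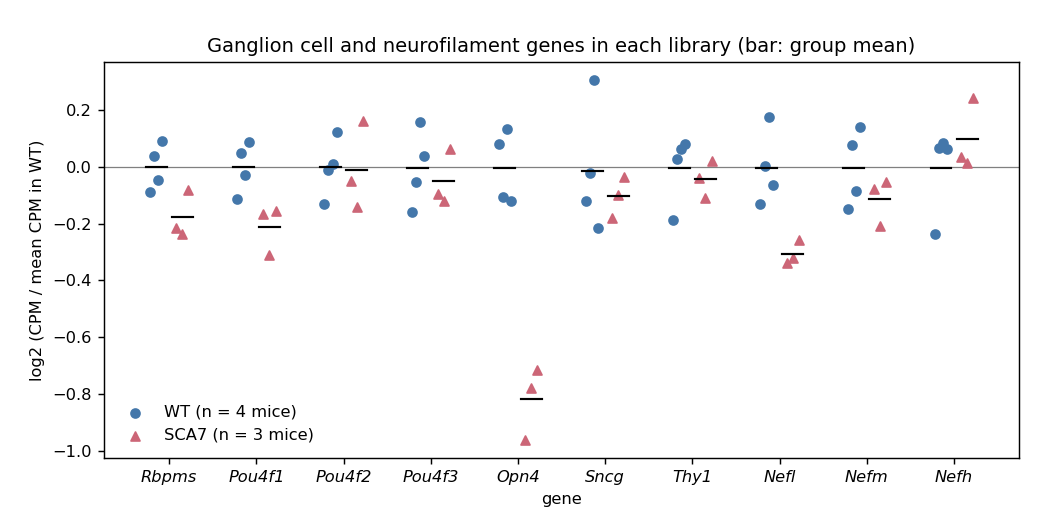
Level of each of the 10 genes in each library, as log2 of its TMM-scaled CPM over the mean CPM of the WT libraries (circles: 4 WT mice, triangles: 3 SCA7 mice, bars: group means). The 3 SCA7 libraries stand clear below WT in *Opn4*, and by less in *Nefl* and *Pou4f1*, while the other 7 genes overlap.

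Among the identity genes, *Rbpms* (chromosome 8 from 33782643 to 33929863, mm10, minus strand) had 17.9, 19.5, 18.4 and 20.3 CPM in the WT libraries and 16.4, 16.1 and 18.0 CPM in the SCA7 libraries. SCA7 replicate 3 lay just inside the WT range and the other two below it. The log2 FC was -0.18 (standard error 0.07, adjusted p = 0.0865 from the quasi-likelihood test of edgeR) under TMM, but 0.01 when libraries were scaled by their totals.

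*Pou4f1* codes for BRN3A, which is present in most ganglion cells with image-forming targets. It lies on chromosome 14 from 104461676 to 104467999, on the minus strand. Its levels were 17.1, 19.2, 18.1 and 19.7 CPM in WT and 16.5, 14.9 and 16.6 CPM in SCA7. The groups did not overlap, with a gap between the highest SCA7 and the lowest WT library that was narrow beside the spread within WT. With a log2 FC of -0.21 (standard error 0.07, adjusted p = 0.0505) it sat at the threshold and was past it in 5 of 17 alternative analyses, while scaling to amacrine and bipolar cell markers gave 0.07.

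The related genes *Pou4f2* (BRN3B, needed early for ganglion cell differentiation; chromosome 8 from 78433010 to 78436645, minus strand) and *Pou4f3* (BRN3C, in a subset of ganglion cells and in hair cells of the ear; chromosome 18 from 42394539 to 42397249, plus strand) had levels that overlapped between genotypes. *Pou4f2* was at 5.42, 5.87, 5.96 and 6.45 CPM in WT and at 5.72, 5.37 and 6.63 CPM in SCA7. The SCA7 libraries thus spanned the whole WT range, and the 95% confidence interval of the log2 FC ran from -0.23 to 0.22. *Pou4f3* was at 5.12, 5.52, 6.40 and 5.87 CPM in WT and at 5.36, 5.27 and 5.98 CPM in SCA7, all within the WT range. Its interval ran from -0.27 to 0.18, so that a fall of about the size seen for *Pou4f1* was not excluded by these libraries for either gene.

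*Opn4* (ENSMUSG00000021799; chromosome 14 from 34590618 to 34600142, minus strand) is transcribed in the few ganglion cells that are themselves photoreceptors. It had the lowest level of the 10, with 219, 235, 207 and 213 counts in the WT libraries and 112, 176 and 222 counts in the SCA7 libraries, the 112 in the library with the fewest counts in all. Scaled by TMM, these were 3.74, 3.29, 3.88 and 3.26 CPM in WT and 1.82, 2.06 and 2.16 CPM in SCA7. The highest SCA7 library lay more than 1 CPM below the lowest WT library. The means were 3.54 ± 0.317 CPM (SD, n = 4) and 2.01 ± 0.174 CPM (SD, n = 3), with a log2 FC of -0.81 (standard error 0.12, adjusted p = 0.00051 from edgeR with Benjamini-Hochberg adjustment). *Opn4* was lower in SCA7, with an adjusted p of at most 0.0084, in each of the 17 alternative analyses, where the log2 FC lay between -0.86 and -0.53. An antisense transcript annotated across the gene, Gm49012, shares 130 bp (4.39%) of its exons and has no row in the count table.

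The windows around the start sites of *Opn4* and of its neighbour *Sncg* are shown because these genes lie close together on chromosome 14, about 20 Mb from *Atxn7* (20.5 and 20.3 Mb), and only *Opn4* was called. *Nefl* and *Nefm* (54.0 Mb from *Atxn7*) and *Pou4f1* (90.4 Mb) lie further along the same chromosome. The 3 members without overlap between groups are thus all on it, as are *Sncg* and *Nefm*, which overlapped. The part of position in these values was not tested. Both windows are 300 bases long, 250 before to 50 after the annotated start, on the minus strand of GRCm38.p6 (mm10), from RefSeq. Of the 10 genes, 4 were matched in the promoter table used here. The *Opn4* window is chr14:34600093-34600392 and the *Sncg* window chr14:34374620-34374919. Capitals mark exact matches to GTGTGA (the core of a T-box half-site) or CATTAA (the core of BRN3 sites), each searched on both strands. The letters of the TATA box, TATAAA, were searched as well. These motifs were chosen with the windows in view.
Opn4 promoter: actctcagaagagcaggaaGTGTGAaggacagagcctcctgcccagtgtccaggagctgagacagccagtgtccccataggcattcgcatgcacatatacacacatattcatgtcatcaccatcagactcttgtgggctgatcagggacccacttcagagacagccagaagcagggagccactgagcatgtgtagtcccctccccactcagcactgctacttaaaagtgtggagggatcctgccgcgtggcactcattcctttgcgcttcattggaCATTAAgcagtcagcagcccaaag
Sncg promoter: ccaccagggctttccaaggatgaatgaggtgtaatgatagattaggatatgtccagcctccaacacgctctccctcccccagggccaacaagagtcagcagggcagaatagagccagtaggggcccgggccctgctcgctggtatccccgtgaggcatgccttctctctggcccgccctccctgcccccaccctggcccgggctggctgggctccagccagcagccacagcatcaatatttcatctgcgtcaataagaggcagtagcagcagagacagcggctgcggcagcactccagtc
The *Opn4* window held GTGTGA at bases 20 to 25, 231 bases before the start, and CATTAA at bases 277 to 282, just after it. Of 32851 RefSeq promoter windows of this length, 14.5% held GTGTGA, 8.84% CATTAA and 13.6% TATAAA. The *Sncg* window and those of *Pou4f1* and *Pou4f2* held none of the 3. *Opn4* had 4 CG dinucleotides and *Sncg* 9, beside a median of 7 over all windows, while *Pou4f1* had 57, more than in 99.8% of them, and *Pou4f2* 18. A match of 6 letters is a description of the sequence and does not show that a factor binds there.

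*Sncg*, a soluble synuclein abundant in ganglion cell bodies and axons (chromosome 14 from 34370274 to 34374789, minus strand), had 82.6, 88.3, 111 and 77.3 CPM in WT and 79.2, 83.8 and 87.5 CPM in SCA7. WT replicate 3 stood above all others, and the SCA7 libraries lay between the remaining WT values. The log2 FC was -0.10 (standard error 0.11, adjusted p = 0.507) under TMM and 0.01 without WT replicate 3. *Thy1*, a surface protein of ganglion cells that other neurons, T cells and vessels can also carry (chromosome 9 from 44043384 to 44048579, plus strand), had 74.8, 86.6, 88.9 and 89.999 CPM in WT and 82.7, 78.8 and 86.3 CPM in SCA7. Here WT replicate 1 was lowest and every SCA7 library fell within the WT range. The log2 FC was -0.04 with a 95% confidence interval from -0.20 to 0.11 under TMM, and it was 0.15 with library totals. Markers of T cells summed to 1.84 to 2.31 CPM in WT and 2.52 to 2.94 CPM in SCA7.

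The 3 neurofilament chains did not share 1 pattern. *Nefl*, the light chain on which the polymer is built (ENSMUSG00000022055; chromosome 14 from 68083863 to 68089095, plus strand), was by far the highest, at 640, 704, 792 and 672 CPM in WT and 554, 562 and 587 CPM in SCA7. Every SCA7 library lay below every WT library, and WT replicate 3 was again highest. The means were 702 ± 65.1 CPM (SD, n = 4) and 568 ± 16.8 CPM (SD, n = 3), with a log2 FC of -0.31 (standard error 0.08, adjusted p = 0.0130 from edgeR). *Nefl* was lower in all 17 alternatives, but no longer passed the test with library totals (-0.11, adjusted p = 0.199), with scaling to amacrine and bipolar markers (-0.03, adjusted p = 0.794), without SCA7 replicate 1 (-0.29, adjusted p = 0.0656) and without SCA7 replicate 2 (-0.30, adjusted p = 0.0581).

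*Nefm*, the medium chain, spans all of *Nefl* on the opposite strand (chromosome 14 from 68082590 to 68124846). It had 43.9, 51.4, 46.0 and 53.7 CPM in WT and 46.1, 42.2 and 47.0 CPM in SCA7. The groups overlapped, with SCA7 replicate 2 below and the other SCA7 libraries inside the WT range. The log2 FC was -0.11 (standard error 0.08, adjusted p = 0.303) under TMM and 0.08 with library totals. One annotated *Nefm* transcript overlaps the exons of *Nefl* by 1108 bp, which is 32.8% of the *Nefl* exons and 19.2% of the *Nefm* exons. The kit keeps the strand of the RNA, but whether the counting used it is not given in the sources used here, so how reads in the overlap were assigned is uncertain for both genes.

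*Nefh*, the heavy chain whose long tail is phosphorylated in mature axons (chromosome 11 from 4938754 to 4948064, minus strand), had 73.2, 90.4, 91.4 and 90.2 CPM in WT. In SCA7 it had 88.3, 87.2 and 102 CPM. WT replicate 1 was well below the other 3 WT libraries, and only SCA7 replicate 3 exceeded them all. The log2 FC was 0.10 (standard error 0.09, adjusted p = 0.422) under TMM. It was above 0 in all 17 alternatives and passed the test in 2 of them, with library totals (0.29, adjusted p = 0.0163) and with scaling to amacrine and bipolar markers (0.38, adjusted p = 0.00083).

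Ratios of counts within a library do not depend on how libraries are scaled, so the chains were also set against each other. *Nefh* over *Nefl* was 0.114, 0.128, 0.115 and 0.134 in WT and 0.159, 0.155 and 0.174 in SCA7, higher in every SCA7 library than in any WT library. The mean log2 ratio differed by 0.40 (p = 0.0286 in an exact two-sided permutation test, the smallest that 35 splits allow; 0.0857 after Benjamini-Hochberg adjustment over the 3 ratios). *Nefh* over *Nefm* was 1.67 to 1.99 in WT and 1.91 to 2.17 in SCA7, a log2 difference of 0.21 (exact p = 0.0857, adjusted 0.114). *Nefl* over *Nefm* was 12.5 to 17.2 in WT and 12.0 to 13.3 in SCA7, a log2 difference of -0.19 (exact p = 0.114, adjusted 0.114). Within the 3 pairs of same-numbered libraries, an alternative added after seeing the data, *Nefl* over *Nefm* was lower in SCA7 in 3 of 3 pairs (mean log2 difference -0.26), while *Nefh* over *Nefm* (0.19) and *Nefh* over *Nefl* (0.45) were higher in 3 of 3, each with an exact p of 0.25, the smallest that 3 pairs allow. Over all 7 libraries, a single ratio at the smallest p cannot pass this adjustment, none of the 3 did, and the part of the *Nefl* and *Nefm* overlap in the ratios was not tested.

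**Figure D2:**
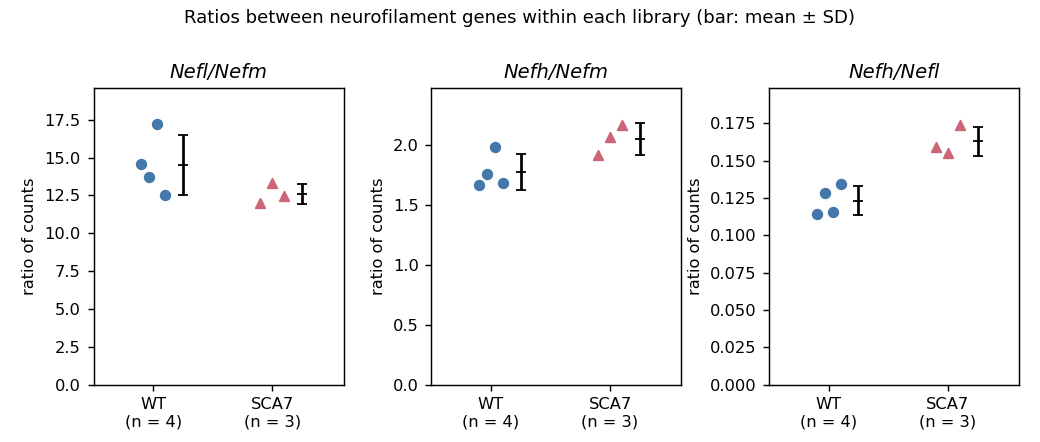
Ratio of counts between neurofilament genes within each library (y axis from 0, circles: 4 WT mice, triangles: 3 SCA7 mice, bars: mean ± SD). For *Nefh* over *Nefl* the SCA7 libraries, at 0.155 to 0.174, lie above all WT libraries, at 0.114 to 0.134, whereas the other ratios overlap.

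The other 9 members were set against *Rbpms* in the same way, as a measure within the library. Whether *Rbpms* counts follow the ganglion cells as a whole was not tested. *Opn4* over *Rbpms* was 0.209, 0.168, 0.211 and 0.161 in WT and 0.111, 0.128 and 0.120 in SCA7, again without overlap. The log2 difference was -0.64 (exact permutation p = 0.0286, adjusted 0.129 over the 9 ratios). *Pou4f2* over *Rbpms* was 0.301 to 0.323 in WT and 0.333 to 0.368 in SCA7, a log2 difference of 0.17 with the same p values. Under TMM the log2 FC was -0.18 for *Rbpms* itself and -0.0037 for *Pou4f2*. *Pou4f1* over *Rbpms* was 0.955 to 0.983 in WT and 0.922 to 1.01 in SCA7 (difference -0.03, exact p = 0.400). *Nefh* over *Rbpms* differed by 0.28 (exact p = 0.0571, adjusted 0.171) and *Nefl* over *Rbpms* by -0.13 (exact p = 0.229, adjusted 0.343). With 9 ratios and 7 libraries, none reached an adjusted p of 0.05. Within the 3 pairs of same-numbered libraries, *Opn4* (mean log2 difference -0.71) and *Nefl* (-0.18) over *Rbpms* were lower in SCA7 in 3 of 3. *Pou4f2* (0.18) and *Nefh* (0.27) over *Rbpms* were higher in 3 of 3. Each had an exact p of 0.25 from sign flips of the pairs, the smallest possible. The remaining ratios to *Rbpms* differed in direction between pairs.

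Levels of different genes were compared per length, as size-factor normalized counts (DESeq2) per kb of the gene's median transcript (RPK). In WT retina *Nefl* was highest at 14335 ± 1316 RPK (SD, n = 4), followed by *Thy1* at 10259, *Sncg* at 7269, *Rbpms* at 2042, *Nefh* at 1492 and *Nefm* at 960 RPK. The transcription factor genes were lower, *Pou4f1* at 487, *Pou4f3* at 174 and *Pou4f2* at 128 RPK, and *Opn4* was last at 118 ± 10.3 RPK. Only the neighbours *Pou4f2* and *Opn4* had WT ranges that overlapped, and the order was the same in SCA7, where *Opn4* was at 67.6 ± 5.87 RPK (SD, n = 3). The median over 16170 protein-coding genes was 732 RPK, so *Nefl*, *Thy1* and *Sncg* stood above 91% or more of them in RPK, and *Opn4* above 26.8%. The length of the gene model decides some of these ranks. With the union of exons *Rbpms* dropped from the fourth to the seventh place at 200.3 RPK and *Thy1* to 1961 RPK, below *Sncg*.

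**Figure D3:**
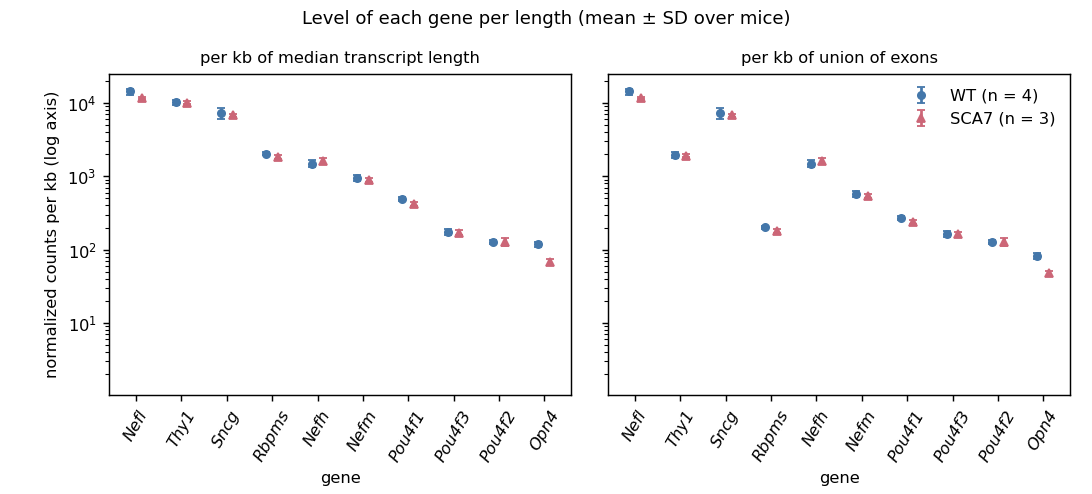
Size-factor normalized counts per kb (log axis) of the 10 genes in WT (circles, mean ± SD, n = 4) and SCA7 (triangles, mean ± SD, n = 3), with the median transcript length on the left and the union of exons on the right. *Nefl* leads and *Opn4* is last under both lengths, while *Rbpms* and *Thy1* move down with the union of exons.

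The scaling of libraries set the direction of most small differences. The TMM factors of WT libraries lay between 0.890 and 0.974 and those of SCA7 libraries between 1.06 and 1.09. With library totals alone the median log2 FC of all genes tested was 0.17, and with libraries scaled to amacrine and bipolar markers 0.26, so every gene moved up by a like amount. The share of calls that were higher went from 48.6% to 79.0% and 87.9%. Beside those medians, *Opn4* was at -0.62 and -0.53, *Nefl* at -0.11 and -0.03 and *Nefh* at 0.29 and 0.38. *Opn4* was below 0 and *Nefh* above 0 under every scaling. In the scaling to amacrine and bipolar markers, 3 of 10 members (*Pou4f2*, *Thy1* and *Nefh*) were higher at an adjusted p under 0.05, beside 44.4% of all genes tested. With library totals 1 of 10 (*Nefh*) was, beside 36.2%.

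**Figure D4:**
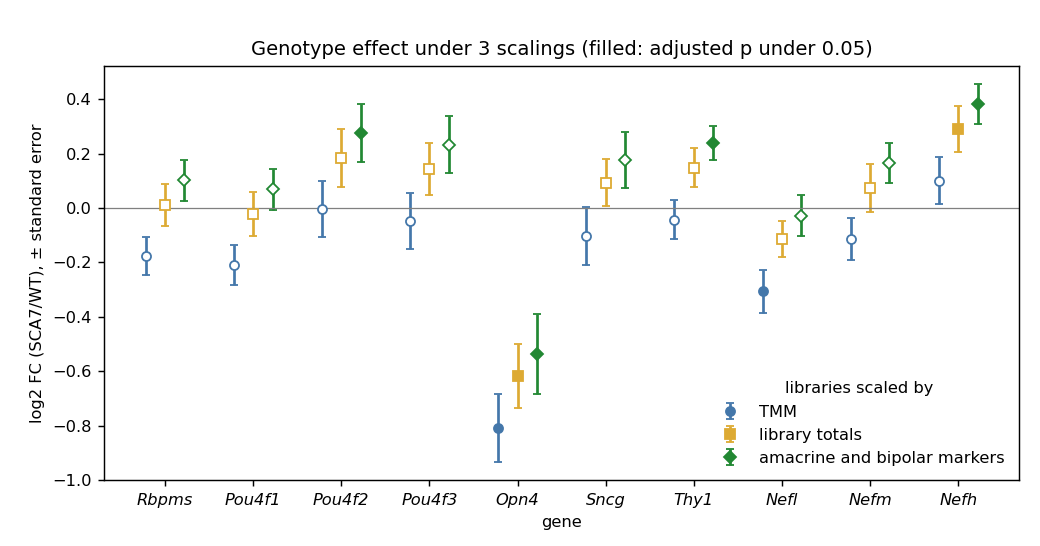
log2 FC (SCA7/WT) with its standard error for each gene when libraries were scaled by TMM (circles), by library totals (squares) or to amacrine and bipolar markers (diamonds), with filled symbols for an adjusted p under 0.05. *Opn4* is lower in all 3 (-0.81, -0.62 and -0.53), while *Rbpms*, *Pou4f2*, *Pou4f3*, *Sncg*, *Thy1* and *Nefm* change sign with library totals and *Pou4f1* with the marker scaling.

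The genes whose log2 CPM followed each member most closely over the 7 libraries, among 14719 genes that averaged 1 CPM or more, are given as a description, since these libraries fall into 2 genotypes. For *Rbpms* they included the nicotinic receptor subunit gene *Chrnb3* (r = 0.98) and *Tunar* (r = 0.98), and *Pou4f1* came at rank 46 with r = 0.94. For *Nefl* they were *Zfp97*, *Cbln1* and the calretinin gene *Calb2*, with r of 0.99 or 1.00, and *Opn4* was the closest member (r = 0.89). For *Nefh* they were *G6pdx*, *Pdxdc1* and *Ttc9* (each r = 0.97), with r = -0.01 to *Nefl* and 0.37 to *Nefm*. *Nefm* ran closest to *Adarb1*, *Spock2* and *Lingo1* (r between 0.98 and 0.99), *Sncg* to *Anxa1*, *Ubac1* and *Dstn* (r between 0.99 and 1.00), and *Thy1* to *Cdk5r1*, Gm8756 and D430036J16Rik (r between 0.97 and 0.99).

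A further 20 genes of ganglion cells as a class were read beside the members. Of these, 1 was called lower and 0 higher under TMM, beside 7.91% and 7.47% of all genes tested. The median log2 FC of the 20 was -0.16 under TMM, 0.03 with library totals and 0.12 with the marker scaling. Without an FC threshold 7 were lower and 0 higher under TMM, beside 14.2% of all genes lower. That count turned on the scaling. With library totals 1 was lower and 2 higher, beside 7.43% and 36.2% of all genes. With the marker scaling 1 was lower and 5 higher, beside 5.35% and 44.4%. Of the 20 genes, 1 is also among the bipolar markers on which that scaling is built. Under TMM the number lower fell to 4 without SCA7 replicate 1 and 2 without SCA7 replicate 2, beside 8.56% and 9.63% of all genes. The call was *Chrna6*, a nicotinic receptor subunit gene of ganglion cells. It had 142, 150, 183 and 148 CPM in WT and 101, 104 and 117 CPM in SCA7, with no overlap. Its log2 FC was -0.54 (standard error 0.09, adjusted p = 0.00095), and it passed the test in all 17 alternatives. Its FC lay near the limit, so it was called in 12 of them, and not with library totals, with the marker scaling, or without WT replicate 3, SCA7 replicate 1 or SCA7 replicate 2.

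Among 21 genes in use to mark ganglion cell types, 3 were called lower and 1 higher, beside 7.91% and 7.47% of all genes tested. Bulk counts do not tell which cells carried them. Their median log2 FC was -0.22 under TMM and 0.06 with the marker scaling. The number called lower was 1 with library totals, 0 with the marker scaling, 1 without WT replicate 3 and 5 without WT replicate 1. Over the whole table, genes called lower numbered 1592 in the main analysis and 978, 768, 1731 and 1325 in those settings. Without an FC threshold 3 of the 21 were lower under the main analysis and 5 with the replicate number as a block. The number was 7 with the level of *Xist*, the RNA of X inactivation, as a covariate, and 7 without WT replicate 1. The share of all genes lower was 14.2%, 17%, 17.3% and 11.4% in those 4 settings. *Adcyap1* codes for PACAP, the peptide that melanopsin cells release with glutamate. It had 4.13, 4.67, 5.55 and 5.14 CPM in WT and 2.75, 2.99 and 3.02 CPM in SCA7, so the groups did not overlap (log2 FC -0.74, standard error 0.12, adjusted p = 0.00082). It passed the test in all 17 alternatives and was called in 16, all but the marker scaling.

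*Cartpt*, a neuropeptide gene used to mark direction-selective ganglion cells, fell in SCA7 from 137 ± 24.9 to 88.8 ± 6.96 CPM (SD, n = 4 and 3; log2 FC -0.62, adjusted p = 0.0042 from edgeR), and was called in 14 of 17 alternatives, not under the scalings by library totals or markers, nor without WT replicate 3. *Trpc6*, a cation channel gene of the family that melanopsin signalling opens, went from 64.7 ± 12.9 to 45.1 ± 4.86 CPM (log2 FC -0.52, adjusted p = 0.028), but it was called in only 8 of 17 alternatives and did not pass the test in 4. The 9 without the call were both DESeq2 alternatives (size factors and Wald test), library totals, the marker scaling, limma-voom, no low-count filter, and those without WT replicate 3, SCA7 replicate 1 or SCA7 replicate 2. *Kcng4*, a potassium channel subunit gene of alpha ganglion cells and of some bipolar cells, went the other way. It had 25.6, 27.4, 26.4 and 25.01 CPM in WT and 54.8, 48.6 and 44.0 CPM in SCA7 (log2 FC 0.91, standard error 0.07, adjusted p = 3.8e-06), with no overlap and the same call in all 17 alternatives.

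A list of 25 other genes of the neuronal cytoskeleton and axon had 2 called higher and 0 lower under TMM. Over all genes tested 7.47% were called higher and 7.91% lower. The list's median log2 FC was 0.14. With library totals 9 of the 25 were called higher (median 0.33) and with the marker scaling 16 (median 0.42), and none lower. Genes called higher over the whole table rose from 1504 of 20128 to 3681 and 5558. Without an FC threshold 6 of the 25 were higher under TMM, where 14.2% of all genes were. This became 18 with library totals and 21 with the marker scaling, where 36.2% and 44.4% of all genes were higher. It was 10 with *Xist* as a covariate, 3 without WT replicate 1, and 2 without SCA7 replicate 1 or SCA7 replicate 3. The share of all genes higher was 18.6%, 11.1%, 8.45% and 9.97% in those settings. The TMM calls were *Prph* and *Cntn2*. *Prph* codes for peripherin, an intermediate filament that joins neurofilaments, and had 4.10, 3.72, 5.10 and 3.93 CPM in WT and 6.65, 5.48 and 5.74 CPM in SCA7 (log2 FC 0.50, adjusted p = 0.010). *Cntn2* codes for an axonal adhesion protein and had 9.57, 10.0, 9.36 and 10.5 CPM in WT and 13.1, 11.3 and 14.5 CPM in SCA7 (log2 FC 0.40, adjusted p = 0.0073). Both genes had every SCA7 library above every WT library. *Prph* was called in 16 of 17 alternatives, all but the one without SCA7 replicate 1, and *Cntn2* in 15, the exceptions being those without WT replicate 3 or SCA7 replicate 3.

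Of 25 genes known to respond to axon injury in ganglion cells, 23 were tested, with 6 called higher and 4 lower and a median log2 FC of 0.25 under TMM, beside 7.47% of all genes called higher and 7.91% lower. With library totals 14 were called higher (median 0.44) and with the marker scaling also 14 (median 0.54), with 4 lower in both. The genes called higher over the whole table rose as well, from 1504 of 20128 to 3681 and 5558. *Socs3* and *Stat3*, a brake and a mediator of cytokine signalling, rose by 2.53 and 1.71 on the log2 scale (adjusted p = 2.9e-07 and 6.4e-08). *Stat3* went from between 48.4 and 54.2 CPM in WT to between 151 and 189 CPM in SCA7. *Cebpd* rose by 2.33, the apoptosis gene *Bbc3* by 0.91 and the transcription factor gene *Jun* by 0.69. *Jun* was 22.8 to 30.7 CPM in WT and 44.1 to 44.6 CPM in SCA7. Called lower were *Ecel1* (-1.59), *Crh* (-1.07), *Mmp12* (-0.92) and *Chac1* (-0.86), of which *Ecel1* overlapped between groups. *Ecel1* did not pass the test in 5 of 17 alternatives, with no low-count filter and without WT replicate 1, WT replicate 3, SCA7 replicate 1 or SCA7 replicate 2 (adjusted p up to 0.129), and *Mmp12* did not pass without SCA7 replicate 3 (adjusted p = 0.0529). Several of these genes are also used by glia and microglia, and bulk counts do not tell which cells carried them.

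**Figure D5:**
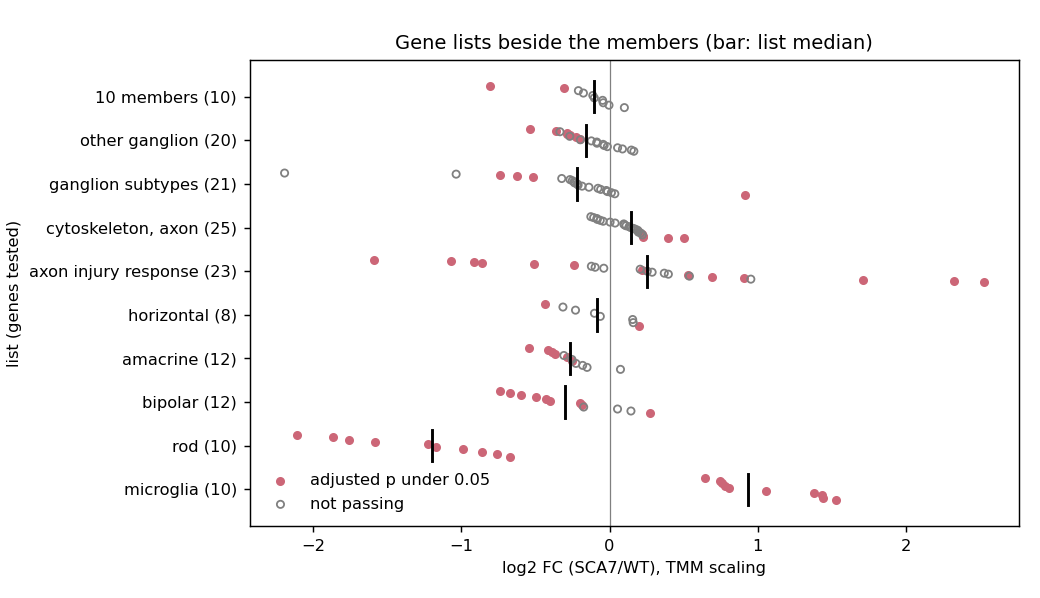
log2 FC (SCA7/WT, TMM scaling) of each tested gene in the 10 members, 4 further lists and 5 cell type marker lists, with the number tested in brackets (filled: adjusted p under 0.05, bar: list median). The members' median of -0.11 lies between -0.27 for amacrine and 0.14 for cytoskeleton and axon genes, far from the rod and microglia markers.

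Marker lists of the other cells of the retina moved with genotype as follows under TMM. The median log2 FC was -0.27 for 12 amacrine markers (1 called lower), -0.30 for 12 bipolar markers (3 called lower), -0.08 for 8 horizontal cell markers (none called) and -1.20 for 10 rod markers (10 called lower). Without an FC threshold 6 amacrine and 8 bipolar markers were lower and 0 and 1 higher, beside 14.2% of all genes in each direction. With library totals 2 and 5 were lower, beside 7.43%, and 1 and 3 higher, beside 36.2%. Without SCA7 replicate 2, amacrine and bipolar markers lower numbered 3 and 6, beside 9.63%. All 10 microglia markers were called higher, their sum going from between 80.2 and 100.5 CPM in WT to between 168 and 188 CPM in SCA7. Of the astrocyte markers 3 of 7 tested were called higher, of endothelium and pericyte markers 3 of 10, of Müller glia markers 1 of 10, and of oligodendrocyte markers 2 of 5. *Mog* and *Olig2* had no count in WT. Of 8 pigment epithelium markers 3 were called lower, but 1 without SCA7 replicate 2, with sums 72.7 to 147 CPM in WT and 19.6 to 49.96 CPM in SCA7. Several of these counts moved with the scaling. Bipolar markers had 1 called lower and 1 higher with library totals, and 0 lower and 2 higher with the marker scaling, which is built on them and on amacrine markers. Müller glia markers called higher numbered 5 and 6 under those scalings, 0 without WT replicate 2, 3 without WT replicate 4 and 3 with the replicate block. Endothelium and pericyte markers called higher numbered 6 and 8 under those scalings, and horizontal cell markers 1 and 2. The amacrine call was lost under both scalings and without WT replicate 2, WT replicate 3, SCA7 replicate 1 or SCA7 replicate 2. Oligodendrocyte markers called higher fell to 1 without SCA7 replicate 1. All 10 microglia markers were called higher in each of the 17 alternatives. The part of these shifts in the members' values was not tested.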

How the data were processed

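Per the labels and the study's methods, the authors depleted ribosomal RNA, made stranded TruSeq libraries, mapped single reads to mm10 with TopHat2 2.0.14 and Bowtie2 2.1.0 and counted reads per Ensembl gene with HTSeq 0.6.1. The deposited table gives the authors' raw counts of 52550 genes in 7 libraries, not normalized. The counting mode and strand setting are not given in the sources used here. Positions and lengths came from GENCODE M21, which covered 52403 genes.

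Genes were kept by filterByExpr (20128), scaled by TMM and tested across all genes by glmQLFit (robust) and glmQLFTest of edgeR 4.0.16 in R 4.3.3, without covariates. Adjusted p values are those of Benjamini and Hochberg across the whole table. The study used DESeq2 for its own comparison, which is an alternative here (DESeq2 1.42.0), as is limma-voom (limma 3.58.1). Fold change intervals use the t quantile of the fit's degrees of freedom. For ratios, an exact permutation test (two-sided) ran through the 35 assignments of 7 libraries. Libraries held 56497675 to 96635832 counts, and precision is given by the SD over mice. Each library is a separate mouse.

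The members and gene lists were chosen with earlier results of these data known. Named are the 10 members, *Atxn7*, the called genes of each list of ganglion, axon and injury genes (at most 5 per direction by adjusted p) and the 3 genes most like 6 of the members, of which 1 is not reported here. Marker lists are given by counts only, with *Mog* and *Olig2* named after their values were seen.

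Titles give WT and SCA7 replicates 1 to 3 the same numbers. Their deviations from the group means correlated at 0.109, 0.382 and 0.167, so the numbers were taken to pair the libraries, which is a hint from the data and a weak one. Differently numbered pairs ran from -0.384 to 0.188, and WT replicate 4, which has no partner, correlated at 0.188 with SCA7 replicate 3 and 0.145 with SCA7 replicate 1. The block fit is an alternative, beside other scalings, filters and tests, *Xist* as covariate, and each library left out. The steps were tested on simulated counts.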

Additional observations from a re-analysis of the deposited data

Results flagged for a closer look

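In groups of 4, a library was marked where its gap to the nearest other exceeded Dixon's 95% critical share of the group's range. Of 38 groups checked, 2 were marked, about the 1 in 20 that chance gives.

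*Nefh* in WT had a gap of 0.937 of its range, because WT replicate 1 was at 73.2 CPM and the other 3 WT libraries were between 90.2 and 91.4 CPM. Without WT replicate 1 the log2 FC of *Nefh* went from 0.10 to 0.03 (adjusted p = 0.810 from edgeR). The log2 ratio of *Pou4f3* to *Rbpms* in WT had a gap of 0.879 of its range, because WT replicate 3 had a count ratio of 0.347 and the other 3 WT libraries were between 0.283 and 0.290.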

How the results depend on the processing

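All alternatives listed were run. *Opn4* kept its direction and call in each of 17. With library totals, log2 FC was 0.012 for *Rbpms*, 0.18 for *Pou4f2*, 0.14 for *Pou4f3*, 0.093 for *Sncg*, 0.15 for *Thy1* and 0.075 for *Nefm*, all opposite in sign to the TMM value. With the amacrine and bipolar marker scaling these were 0.10, 0.28, 0.23, 0.18, 0.24 and 0.17, and *Pou4f1* was at 0.069. *Pou4f2*, near 0, also changed sign with DESeq2 size factors (0.0095), the DESeq2 Wald test (0.010), no low-count filter (0.018) and the replicate block (0.033). With single libraries left out, it lay between -0.097 and 0.063, *Pou4f3* between -0.11 and 0.0089 and *Sncg* between -0.17 and 0.014.

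Members lower at an adjusted p under 0.05 numbered 2 in the main analysis, 1 under either of these 2 scalings, and between 1 and 4 with a library left out (4 without WT replicate 3, 1 without SCA7 replicate 1 or 2). The share of all genes lower by that rule was 14.2% in the main analysis, 7.43% with library totals and 5.35% with the marker scaling. It was 16.7% without WT replicate 3, 8.56% without SCA7 replicate 1 and 9.63% without SCA7 replicate 2. Members higher numbered 0 (14.2% of all genes), then 1 with library totals (36.2%) and 3 with the marker scaling (44.4%). Genes called lower went from 1592 to 978 and 768, and higher from 1504 to 3681 and 5558. Dropping the FC threshold gave 2852 lower and 2853 higher genes and 2 members lower. The cause of these shifts was not tested. The replicate block changed no call of a member, giving -0.85 for *Opn4* and -0.32 for *Nefl*.

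The log2 ratio of *Sncg* to *Rbpms* lay between -0.012 and 0.21 with single libraries left out (0.086 with all), and was -0.012 with the replicate block, the only one of 12 ratios to change sign there. Per kb of the union of exons, WT levels were 200.3 RPK for *Rbpms*, 273 for *Pou4f1*, 82.6 for *Opn4*, 1961 for *Thy1* and 582 for *Nefm*. With 3 SCA7 mice, ratio tests without a library could not reach 0.05 after adjustment. *Opn4* had the fewest counts of the 10 genes, 112 to 235 in a library.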
